A study of Homo sapiens with 12 samples.

Results

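The nuclear-encoded subunits of the respiratory chain are proteins that are made on cytosolic ribosomes and imported into mitochondria. A list of 59 genes was chosen by function, 59 of the 19580 genes in the deposited table. It holds 37 subunits of complex I, 9 of complex III and 11 of complex IV. It also holds 2 subunits, alpha and beta, of the catalytic head of ATP synthase, which is also called complex V. All 59 passed the filter on low values, which kept 11510 genes. Their ribosome footprints were measured in HAP1, a human cell line with a near-haploid genome that was derived from KBM-7 leukaemia cells. Ribosome profiling digests the mRNA outside ribosomes with RNase, and the protected fragments are sequenced, so that the density of fragments on an mRNA reflects the ribosomes it carries. Values are in RPKM, reads divided by transcript length and by the library's total.

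There were 4 groups of 3 biological replicates, 12 libraries in all, from the one cell line. Cells in the first group were untreated. A second group was given 4-thiouridine (4SU), a uridine analogue that is built into new RNA, at 5 uM for 18 h. The third received UVA light (6 kJ/m2) and recovered for 30 min before harvest. The fourth received the 4SU and then the UVA (4SU+UVA), the combination in which 4SU in RNA can form covalent bonds with nearby protein. Nothing in the labels says beyond "biological" how the replicates were grown, so p-values measure the spread between these libraries.

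Complex I takes electrons from NADH, complex III passes them from ubiquinol to cytochrome c, and complex IV gives them to oxygen. The protons pumped on the way drive ATP synthase. Each complex has a conserved core that carries the redox centres or the catalytic sites, and around it a shell of supernumerary (accessory) subunits that serve assembly and stability. Many of the accessory subunits are small proteins with a single membrane span. Mitochondria encode further core subunits themselves, and those are not analysed here. Here 13 members were classed as core or catalytic, among them NDUFS1, NDUFS3, NDUFV1, UQCRC1, UQCRC2, UQCRFS1, CYC1, ATP5F1A and ATP5F1B, and the other 46 as supernumerary. UQCRC1 and UQCRC2 are core proteins by name but carry no redox centre, so the class is wider than the redox or catalytic core. NDUFA4, first assigned to complex I, was counted with complex IV, where it was later found.

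Depth ran from 1899854 reads in a 4SU+UVA library to 5832366 in an untreated one, and log2 values of replicates correlated across the tested genes at r of 0.982 to 0.991. Each member had 72 to 16598 reads per library. In untreated cells the members' mean density ran from 5.64 RPKM for NDUFA5 to 1640.1 RPKM for ATP5F1B, with a median of 203, against a median of 9.92 over all genes tested. RPKM divides by transcript length, here 353 nt for NDUFS8 to 11660 nt for NDUFS1. A long annotated untranslated region that carries few ribosomes thus lowers a gene's value. Each gene is listed with a single transcript, and whether that is its main or full-length one was not checked. That includes the 353 nt listed for NDUFS8. Several of these genes have near-identical processed pseudogenes, and UQCRH has a near-identical copy, UQCRHL. How shared reads were counted is not given in the sources used here, so levels of such genes are uncertain. Of the blood-lineage markers, PTPRC had 0 reads in every library and SPI1, GATA1 and CD34 at most 1, while VIM (vimentin) had 2643 to 11954.

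With 4SU and UVA, most supernumerary subunits had a higher footprint density (RPKM) than in untreated cells. Most core or catalytic subunits had a lower one. Of the 46 supernumerary subunits 36 rose, 2 fell (NDUFA9 and NDUFA10) and 8 did not pass the test, with a median log2 difference of 0.41. Of the 13 core or catalytic subunits 8 fell, 1 rose (NDUFS8) and 4 did not pass, with a median of -0.26. Within complex I, 3 of the 7 core subunits fell, 1 rose and 3 did not pass, with a median of -0.11. The largest rise was that of COX7C, 1.85-fold, and the largest fall that of NDUFS1, 2.04-fold. Over all members 37 rose and 10 fell, 62.7% and 16.9%, at an adjusted p under 0.05 by limma on log2(RPKM + 0.5). Over all 11510 genes tested, 59% passed in this comparison, that is 40.6% higher and 18.4% lower. The ranges of both groups were separate for 47 members, against 63.7% of all genes tested.

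The shift of the median gene in the same comparison was 0.23, against 0.31 for the median member. The medians of the supernumerary and of the core or catalytic class lay on opposite sides of it. RPKM are scaled to each library's total, and they do not show how many footprints a cell held. In such bulk lysates fewer ribosomes on an mRNA, less of the mRNA and fewer cells with it also cannot be told apart. With each library centred on its median gene, 25 members were higher and 15 lower (62.5% higher among those called, against 78.7% with the deposited scaling), where 27% of all genes tested were higher and 25.1% lower. Centring changed every log2 difference of this comparison by -0.17. Under that centring 25 supernumerary subunits were higher and 4 lower, and 0 core or catalytic subunits were higher and 11 lower. The 12 higher calls lost under centring were those of COX5A, UQCRH, NDUFA6, NDUFA8, NDUFA13, NDUFAB1, NDUFB1, NDUFB9, NDUFB10, NDUFB11, NDUFS8 and NDUFV3, of which COX5A, UQCRH, NDUFA8, NDUFAB1, NDUFB9 and NDUFV3 were lost also under quantile normalisation. No member called in this comparison changed sign between the deposited scaling, median centring and quantile normalisation.

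**Figure D1:**
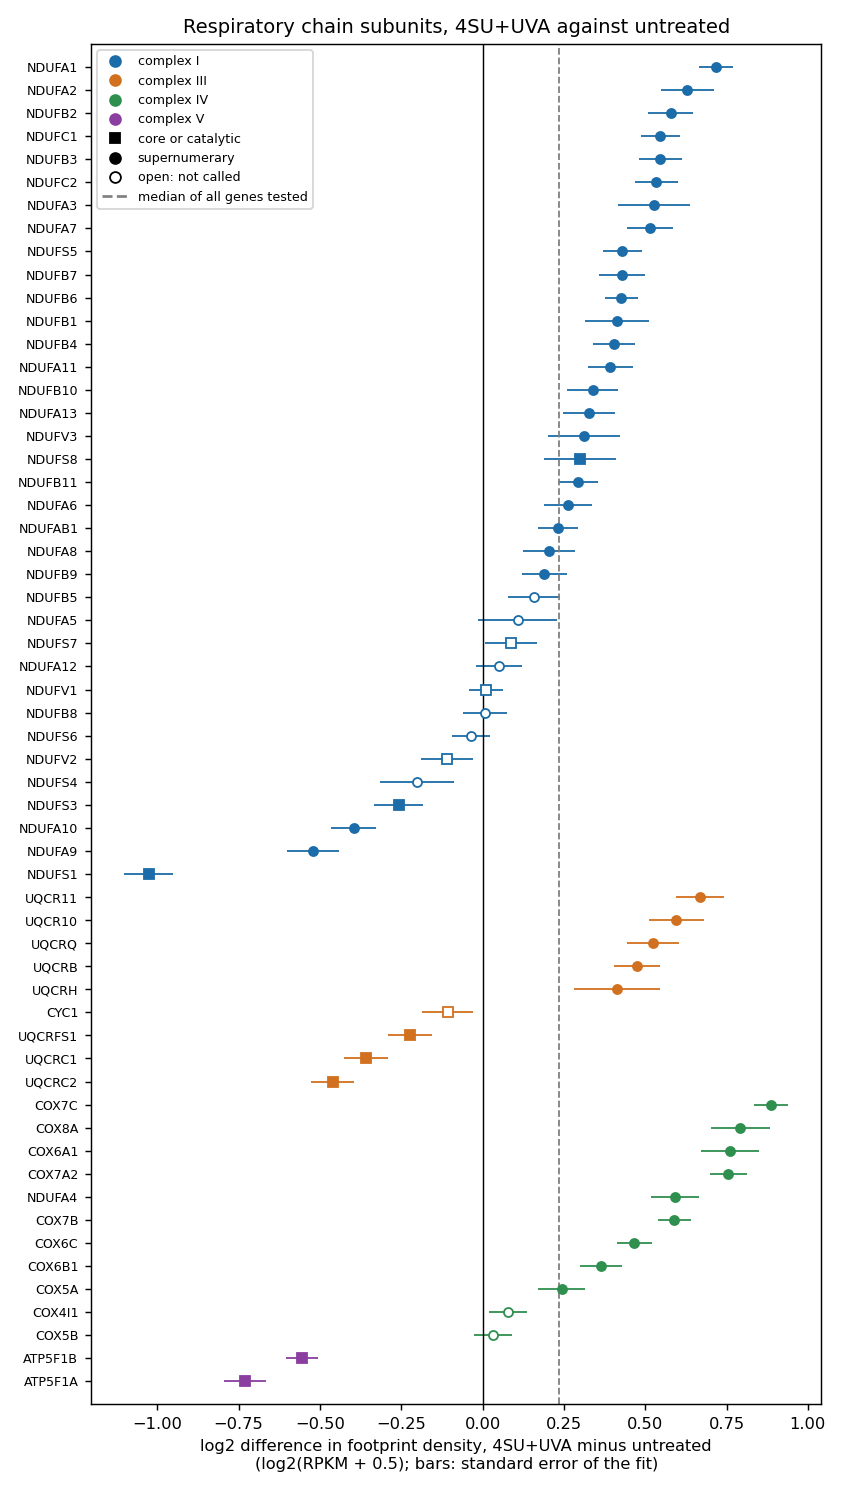
Log2 difference in footprint density between 4SU+UVA and untreated cells for 58 of the 59 subunits, ordered within complex, with the standard error of the fit over 12 libraries (bars). Filled symbols passed the test, squares are core or catalytic subunits, and the dashed line marks the median of all genes tested, 0.23; complex IV lies between 0.03 and 0.89, and the ATP synthase subunits lie at -0.56 and -0.73.

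Summed over members, the same split was seen in the share of each library's reads. The supernumerary subunits together took 0.994, 1.03 and 1.03% of reads without treatment, 1.08, 1.02 and 0.976% after 4SU, 1.04, 1.04 and 1.06% after UVA and 1.37, 1.35 and 1.34% after 4SU+UVA. The 3 libraries of the combined treatment lay above the other 9. Core or catalytic subunits took 0.689, 0.711 and 0.699%, 0.681, 0.679 and 0.682%, 0.691, 0.704 and 0.714% and 0.536, 0.468 and 0.503% in the same order of groups, and here the 3 libraries of the combined treatment lay below the rest. The ratio of supernumerary to core reads was 1.46 ± 0.0166 (SD, n = 3) in untreated cells, 1.51 ± 0.0752 with 4SU, 1.49 ± 0.0154 with UVA and 2.7 ± 0.173 with both. This ratio is taken within a library and so does not depend on its scaling. The share of all 59 members moved less, from 1.72 ± 0.0319% in untreated cells to 1.86 ± 0.0447% with 4SU+UVA (SD, n = 3). By complex, complex IV went from 0.397 ± 0.00564% to 0.559 ± 0.0103% and the ATP synthase pair from 0.425 ± 0.00753% to 0.279 ± 0.0211%. This pair belongs to the core or catalytic class, whose mean share went from 0.700% to 0.502%. The sum of that class and the ratio thus weigh mainly on ATP5F1A and ATP5F1B. These sums were not tested.

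**Figure D2:**
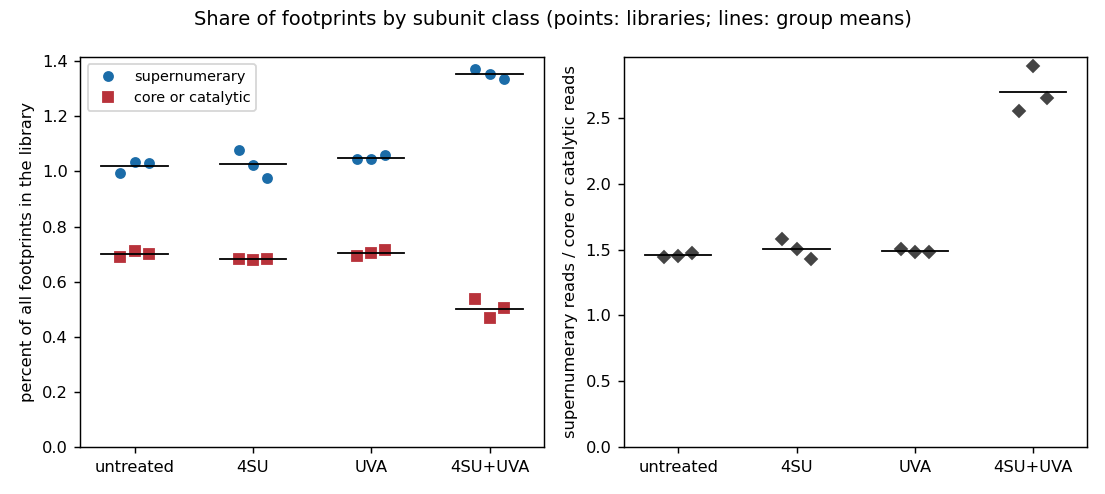
Percent of all footprints in a library that fell on supernumerary and on core or catalytic subunits (left), and the ratio of their reads (right), for the 3 libraries of each group (points) and the group mean (line). The ratio lay between 1.43 and 1.58 in the 9 libraries without the combined treatment and between 2.56 and 2.89 in the 3 with it.

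Complex IV showed the highest median log2 difference of the complexes, 0.59. Of its 11 subunits 9 were higher, 0 lower by limma, also at an unadjusted p under 0.05, and 2 did not pass. Of all genes tested 40.6% were higher and 18.4% lower. All 11 were classed as supernumerary, while complexes I and III hold both classes and the ATP synthase pair only the core or catalytic one. The supernumerary subunits alone had medians of 0.52 in complex III and 0.33 in complex I. COX7C, a small subunit with a single membrane span, led the members. COX7C (ENSG00000127184) had 252, 269 and 256 RPKM without treatment, 270.3, 289.5 and 269 after 4SU, 258, 267 and 262 after UVA and 471, 501 and 465 after 4SU+UVA. Its rise was 0.89 on the log2 scale (SE 0.05, limma adjusted p = 1.1e-08). COX8A (ENSG00000176340) had 762, 879.7 and 916 RPKM without treatment, 833, 696 and 685 after 4SU, 836, 838 and 927 after UVA and 1469, 1633 and 1332 after 4SU+UVA. COX8A, another small membrane-spanning subunit, rose by 0.79 on the log2 scale (SE 0.09, limma adjusted p = 4.8e-06), and neither gene's combined-treatment libraries overlapped those of another group.

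COX6A1, the widely expressed form of a subunit that helps to hold the dimer of complex IV together, went from a mean of 211 ± 14.5 RPKM (SD, n = 3) to 357 ± 12.6. COX6A1 (ENSG00000111775) had 211, 225 and 196 RPKM without treatment, 206, 203 and 157 after 4SU, 221, 227 and 246 after UVA and 343, 364 and 365 after 4SU+UVA. The 4SU libraries were the lowest on average and the combined treatment the highest, with 0.76 (SE 0.09, limma adjusted p = 7.0e-06) against untreated. COX7A2 (ENSG00000112695) had 219, 231 and 236 RPKM without treatment, 237, 250 and 239 after 4SU, 223, 246 and 231 after UVA and 369.8, 407 and 383 after 4SU+UVA. COX7A2, the widely expressed form of subunit 7a, thus rose by 0.76 on the log2 scale (SE 0.06, limma adjusted p = 1.1e-07). NDUFA4, COX7B, COX6C and COX6B1 rose by 0.59, 0.59, 0.47 and 0.36.

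In complex IV the values of COX5A, COX4I1 and COX5B were the lowest. COX5A, a matrix-side subunit, rose by 0.24 on the log2 scale (SE 0.07, limma adjusted p = 0.0092), a call that was lost under median centring and quantile normalisation, at 0.07 in both (limma adjusted p = 0.42 and 0.45). COX4I1, the largest nuclear-encoded subunit, and COX5B, which binds zinc, did not pass. COX4I1 (ENSG00000131143) had 666, 687 and 666 RPKM without treatment, 762, 709 and 668 after 4SU, 624, 677 and 665 after UVA and 753, 666 and 715 after 4SU+UVA. The groups overlapped, at 0.08 (SE 0.06, limma adjusted p = 0.27) for 4SU+UVA against untreated. COX5B (ENSG00000135940) had 522, 561 and 539 RPKM without treatment, 541, 472 and 496 after 4SU, 508, 479 and 524 after UVA and 544, 551 and 565 after 4SU+UVA. Here too the groups overlapped, at 0.03 (SE 0.06, limma adjusted p = 0.65), and both values turned negative under median centring and quantile normalisation.

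In complex III the 5 supernumerary subunits rose, where 40.6% of all genes tested were higher and 18.4% lower. Of the 4 classed as core or catalytic, the 3 that passed fell, so that the complex's median of 0.41 describes neither class. UQCR11, UQCR10, UQCRQ and UQCRB, small subunits that surround cytochrome b, rose by 0.67, 0.60, 0.52 and 0.47. UQCRH (ENSG00000173660) had 271, 356 and 327 RPKM without treatment, 294, 264 and 244 after 4SU, 247, 266 and 319 after UVA and 339, 488 and 452 after 4SU+UVA. UQCRH, the hinge protein that helps cytochrome c1 meet cytochrome c, rose by 0.41 on the log2 scale (SE 0.13, limma adjusted p = 0.015), with libraries of both groups overlapping. Its call did not hold without untreated replicate 1 (limma adjusted p = 0.076), 4SU+UVA replicate 2 (0.075) or 4SU+UVA replicate 3 (0.054), nor under median centring, at 0.24 (0.12), or quantile normalisation, at 0.29 (0.085).

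UQCRC2 and UQCRC1, the large proteins on the matrix side of complex III, fell by 0.46 and 0.36 on the log2 scale. They were classed as core but carry no redox centre. UQCRFS1, the Rieske iron-sulphur protein, fell less. UQCRFS1 (ENSG00000169021) had 44.2, 43.5 and 45.1 RPKM without treatment, 49.4, 46.4 and 45.7 after 4SU, 45.1, 44.4 and 45.2 after UVA and 40.1, 35.6 and 37.8 after 4SU+UVA. The combined treatment gave the lowest 3 of the 12 values, at -0.22 (SE 0.07, limma adjusted p = 0.011) against untreated. CYC1, cytochrome c1, did not pass. CYC1 (ENSG00000179091) had 319, 347 and 335 RPKM without treatment, 342, 338 and 303 after 4SU, 334, 341 and 377 after UVA and 350.01, 291 and 291 after 4SU+UVA. Its libraries overlapped between groups, at -0.11 (SE 0.08, limma adjusted p = 0.24), and without 4SU+UVA replicate 1 it passed as lower, at -0.20 (limma adjusted p = 0.028). CYC1 passed as lower also under median centring, at -0.28 (limma adjusted p = 0.0096), and quantile normalisation, at -0.21 (limma adjusted p = 0.014).

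In complex I, 23 of 37 subunits rose, 5 fell and 9 did not pass, with a median of 0.29, close to that of the median gene. The rises and falls were 62.2% and 13.5%, against 40.6% and 18.4% of all genes tested. Of its 30 supernumerary subunits 22 rose and 2 fell, and of its 7 core subunits 1 rose and 3 fell. NDUFA1, a small membrane subunit needed for assembly, was the highest of them. NDUFA1 (ENSG00000125356) had 738, 741 and 758 RPKM without treatment, 804, 803 and 829.8 after 4SU, 808, 798 and 743 after UVA and 1151, 1308 and 1224 after 4SU+UVA. The 3 libraries with 4SU+UVA lay above all others, and the rise was 0.72 on the log2 scale (SE 0.05, limma adjusted p = 7.7e-08). NDUFA2, NDUFB2, NDUFC1 and NDUFB3, further accessory subunits, rose by 0.63, 0.58, 0.55 and 0.55. At the lower end NDUFAB1, the mitochondrial acyl carrier protein, rose by 0.23, NDUFA8 by 0.20 and NDUFB9 by 0.19, no more than the median gene.

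The calls of 4 complex I subunits were lost when single libraries were left out. Those of NDUFA8 and NDUFB9 were lost without 4SU+UVA replicate 1 (limma adjusted p = 0.10 and 0.094), 4SU+UVA replicate 3 (0.11 and 0.078), untreated replicate 1 (0.17 and 0.069) or untreated replicate 3 (0.080 and 0.059). NDUFB9 lost its call also without untreated replicate 2 (0.060), and NDUFA8 without any 1 of the UVA libraries (0.051 to 0.053). NDUFV3 lost its call without untreated replicate 1 (0.058) or 3 (0.067) and 4SU+UVA replicate 1 (0.067) or 2 (0.052). NDUFS8, the core subunit that rose, did so by 0.30 on the log2 scale (SE 0.11, limma adjusted p = 0.029), and lost the call without untreated replicate 1 (0.13) or 4SU+UVA replicate 1 (0.13).

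The 2 supernumerary subunits that fell are among the largest accessory proteins of complex I. NDUFA9 (ENSG00000139180) had 25.5, 28.3 and 28.9 RPKM without treatment, 29.1, 28.5 and 27.8 after 4SU, 28.5, 28.1 and 28.5 after UVA and 20.01, 17.6 and 19.5 after 4SU+UVA. The 3 values with 4SU+UVA were the lowest of the 12, and NDUFA9, which binds NADPH beside the quinone site, fell by 0.52 on the log2 scale (SE 0.08, limma adjusted p = 6.5e-05) against untreated. NDUFA10, related to nucleoside kinases, fell by 0.40 on the log2 scale (SE 0.07, limma adjusted p = 2.5e-04). The supernumerary subunits NDUFA5, NDUFA12, NDUFB5, NDUFB8, NDUFS4 and NDUFS6 did not pass, at log2 differences of -0.20 (NDUFS4) to 0.16 (NDUFB5). NDUFS4, a subunit often mutated in Leigh syndrome, passed as lower without 4SU+UVA replicate 3 (limma adjusted p = 0.033), NDUFS4 and NDUFS6 did so under median centring, and NDUFS6 also under quantile normalisation.

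Among the core subunits of complex I, NDUFS1, the largest and the bearer of several iron-sulphur clusters, fell most of all members. NDUFS1 (ENSG00000023228) had 28.7, 27.4 and 27.4 RPKM without treatment, 22.7, 23.4 and 24.4 after 4SU, 24.5, 26.7 and 25.4 after UVA and 13.2, 13.6 and 13.4 after 4SU+UVA. The libraries with both treatments lay far below every other library, with a mean of 27.8 ± 0.761 RPKM falling to 13.4 ± 0.222 (SD, n = 3) and -1.03 (SE 0.07, limma adjusted p = 7.8e-08). NDUFS3, another core subunit of the peripheral arm, fell by 0.26 on the log2 scale (SE 0.07, limma adjusted p = 0.0085).

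NDUFV1, which binds NADH and flavin, NDUFV2 beside it and NDUFS7, which carries the last iron-sulphur cluster before ubiquinone, did not pass. NDUFV1 (ENSG00000167792) had 186, 198 and 193 RPKM without treatment, 188, 185 and 191 after 4SU, 201, 203 and 207 after UVA and 200.2, 198 and 184 after 4SU+UVA. Its log2 difference for 4SU+UVA against untreated was 0.01 (SE 0.05, limma adjusted p = 0.87), and under median centring it passed as lower, at -0.16. NDUFV2 too passed as lower under median centring, at -0.28. NDUFS7 (ENSG00000115286) had 194, 204 and 200.4 RPKM without treatment, 232, 217 and 199.9 after 4SU, 184, 199 and 227 after UVA and 230.1, 204 and 203 after 4SU+UVA. Its log2 difference was 0.09 (SE 0.08, limma adjusted p = 0.36), and it turned to -0.08 under median centring. Redox-carrying subunits of the same arm thus had values from -1.03 to 0.30.

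The alpha and beta subunits of the catalytic head of ATP synthase both fell. ATP5F1B, the beta subunit that makes ATP, had the highest density of the members. ATP5F1B (ENSG00000110955) had 1611, 1692 and 1618 RPKM without treatment, 1651, 1699 and 1645 after 4SU, 1642, 1646 and 1654 after UVA and 1186, 1029.97 and 1138 after 4SU+UVA. Its libraries in the first 3 groups lay close together and those with both treatments lay below them, 1.47-fold lower than untreated, at -0.56 (SE 0.05, limma adjusted p = 5.8e-07). ATP5F1A (ENSG00000152234) had 235, 235 and 240.3 RPKM without treatment, 204, 207 and 226 after 4SU, 234, 237 and 236 after UVA and 153, 129 and 146 after 4SU+UVA. ATP5F1A, the alpha subunit, fell 1.66-fold against untreated, at -0.73 (SE 0.06, limma adjusted p = 4.3e-07), and its values with both treatments were again the lowest. The 10 members that fell against untreated, these 2 included, were called lower under every alternative tried.

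**Figure D3:**
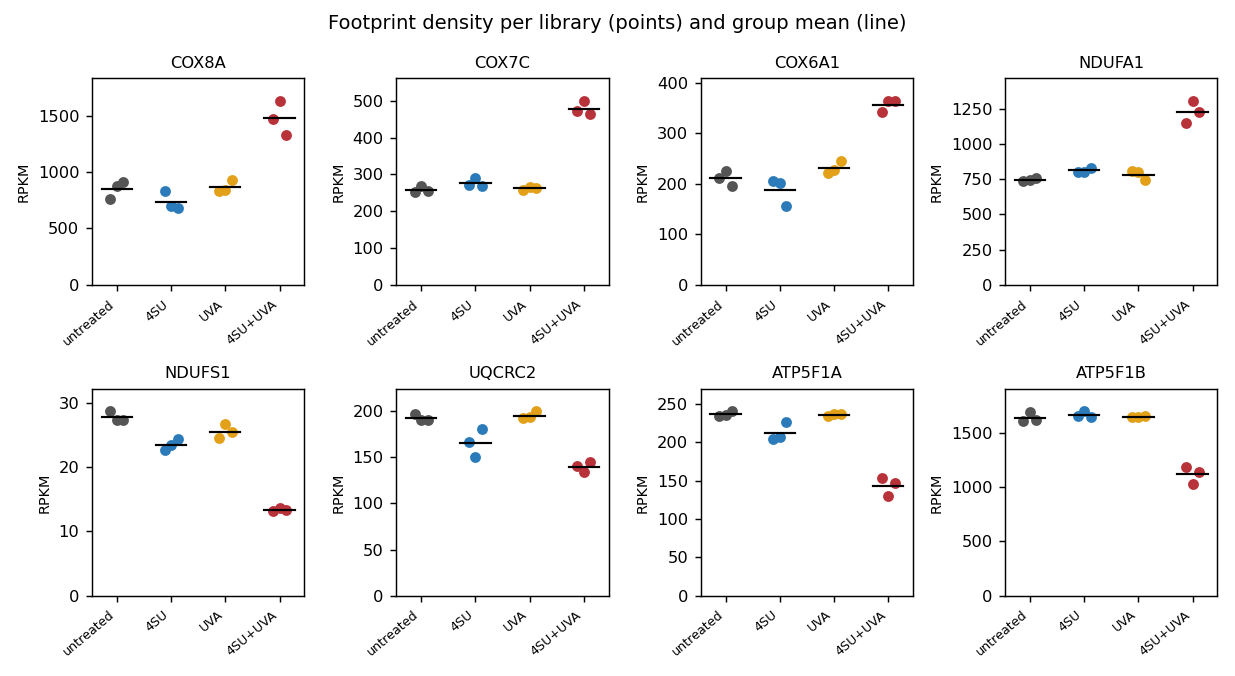
Footprint density (RPKM) in each of the 3 libraries of every group (points) with the group mean (line) for 4 supernumerary subunits that rose (top) and 4 subunits classed as core or catalytic that fell (bottom). In each panel the 3 libraries with 4SU+UVA lie outside the range of the other 9, for COX8A at 1332 to 1633 RPKM against at most 927, and for NDUFS1 at 13.2 to 13.6 against at least 22.7.

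Promoters of members that moved in opposite directions are shown to compare a shared element of their control. Many genes of the respiratory chain are controlled by GABPA, also called nuclear respiratory factor 2 (NRF2), a factor of the ETS family, and by NRF1. The ETS word CCGGAAG, searched on both strands, stood in the 250 bases before the gene start in 13 of the 49 members with a RefSeq promoter (26.5%), against 10.2% of 27305 genes with a window of the same length. Of these 13 members 9 rose, 3 fell (NDUFS1, NDUFS3 and ATP5F1A) and 1 did not pass (COX5B) with 4SU+UVA against untreated. The NRF1 word, GCGC then any 2 bases then GCGC, stood in 9 of 49 (18.4%, against 8.7% of genes), of which 5 rose, 3 fell and 1 did not pass. Beside these counts, 62.7% of all 59 members rose and 16.9% fell, as did 40.6% and 18.4% of all genes tested. Whether direction differed between members with and without a word was not tested. AAGATGGCG, a word of YY1, stood in 0 of 49, against 0.784% of genes. At so low a share 49 promoters cannot show a lack of the word, and bases after the gene start were not searched. The windows printed here are of COX8A (chr11:63974370-63974619, plus strand) and COX6A1 (chr12:120437863-120438112, plus strand), which rose, and of NDUFS3 (chr11:47578824-47579073, plus strand) and NDUFS1 (chr2:206159445-206159694, minus strand), which fell. They are RefSeq sequence of GRCh38.p14, 5′ to 3′ on the gene's strand, and capitals mark the ETS word on either strand.
COX8A: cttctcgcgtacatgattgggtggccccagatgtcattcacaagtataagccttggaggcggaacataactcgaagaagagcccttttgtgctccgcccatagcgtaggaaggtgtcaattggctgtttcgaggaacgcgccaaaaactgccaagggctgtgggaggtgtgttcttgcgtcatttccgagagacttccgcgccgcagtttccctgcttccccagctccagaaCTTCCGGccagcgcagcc
COX6A1: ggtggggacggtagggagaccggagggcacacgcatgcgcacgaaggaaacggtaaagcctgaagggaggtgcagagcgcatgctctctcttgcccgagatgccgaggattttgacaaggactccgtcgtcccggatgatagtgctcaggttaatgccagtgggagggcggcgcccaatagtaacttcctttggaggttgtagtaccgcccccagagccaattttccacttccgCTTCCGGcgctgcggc
NDUFS3: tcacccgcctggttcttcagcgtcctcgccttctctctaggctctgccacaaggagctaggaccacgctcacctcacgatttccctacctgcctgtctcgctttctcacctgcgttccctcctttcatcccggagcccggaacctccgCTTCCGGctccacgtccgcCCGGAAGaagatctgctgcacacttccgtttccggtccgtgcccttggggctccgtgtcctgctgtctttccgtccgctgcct
NDUFS1: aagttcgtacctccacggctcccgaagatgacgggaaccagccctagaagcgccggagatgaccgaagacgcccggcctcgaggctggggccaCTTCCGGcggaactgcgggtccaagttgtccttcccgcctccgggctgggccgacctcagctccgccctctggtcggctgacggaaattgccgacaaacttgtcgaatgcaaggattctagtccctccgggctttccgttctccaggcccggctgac
The word began 18 bases before the start of COX8A, 16 before that of COX6A1, 102 and 83 before that of NDUFS3 and 157 before that of NDUFS1. NDUFS1 has a second annotated start whose window did not hold it. The word thus occurred in members that rose and in members that fell, and a match of letters is not a bound site.

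Transcript length moved with the outcome, both among the members and in the whole table. The 13 core or catalytic subunits had a median transcript length of 1595 nt and the 46 supernumerary ones of 718 nt. The members' transcripts had a median of 804 nt, against 2616.5 nt over all genes tested, and 37 of 59 were under 1000 nt. Of those 37, 28 rose and 1 fell with 4SU+UVA against untreated (75.7% and 2.7%), against 59.6% and 2.89% of all 1071 genes of that length. Of the 22 members of 1000 nt or more 9 rose and 9 fell (40.9% each), against 38.7% and 20% of all 10439 such genes. Across the 59 members the log2 difference correlated with log2 length at r = -0.505 and rho = -0.379, and across all genes tested at r = -0.238 and rho = -0.219. Genes are not independent replicates, and these values only describe the libraries. These lengths are of the transcript listed for each gene, with any untranslated region it holds, and coding lengths were not looked at. Some members lay off the order by the length of the listed transcript, and where they lie by coding length is not known here. COX7C, with 1584 nt, led the rises, UQCRB, with 8459 nt, rose by 0.47, and NDUFS3, with 894 nt, fell. The part of length in the split between the classes was not tested.

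**Figure D4:**
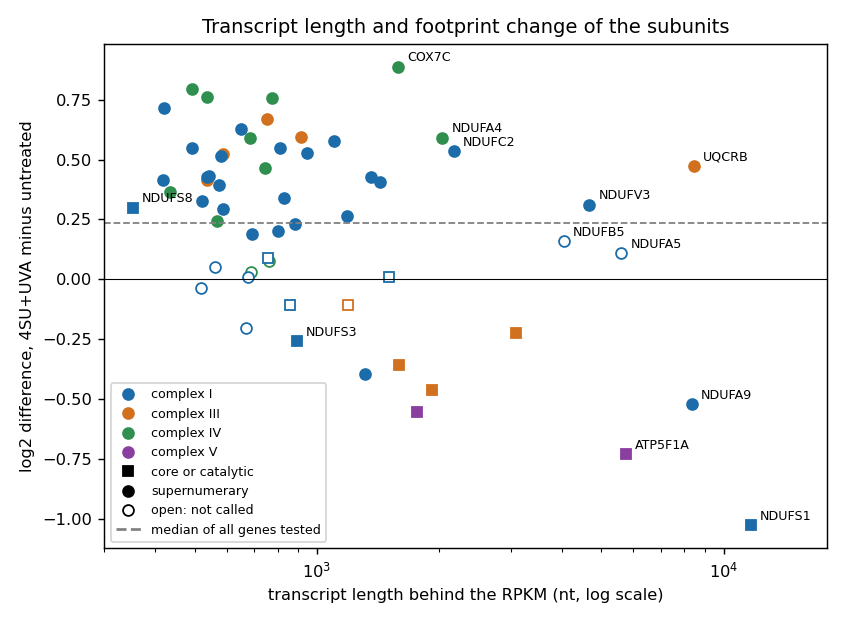
Log2 difference in footprint density between 4SU+UVA and untreated cells (y axis) against the transcript length behind the RPKM (x axis, log scale) for 58 of the 59 subunits. Open symbols did not pass the test, squares are core or catalytic subunits, and the dashed line is the median of all genes tested, 0.23; most short transcripts lie above 0, while NDUFS1 with 11660 nt is the lowest point.

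4SU without UVA changed few members. Against untreated cells 1 rose, 3 fell and 55 did not pass, with a median of 0.03 against 0.09 for the median gene, while 14.4% of all genes tested passed (11.3% higher and 3.12% lower). Libraries did not overlap for 17 members, against 35.3% of all genes tested. NDUFB10 (ENSG00000140990) had 183, 191 and 204 RPKM without treatment, 239, 244 and 211 after 4SU, 194, 212 and 212 after UVA and 268, 219 and 246 after 4SU+UVA. NDUFB10, an accessory subunit of the membrane arm of complex I, rose with 4SU by 0.26 on the log2 scale (SE 0.08, limma adjusted p = 0.038), with no overlap between untreated and 4SU libraries. NDUFA10, NDUFS1 and UQCRC2 fell by 0.24, 0.24 and 0.22 (limma adjusted p = 0.033, 0.046 and 0.035). NDUFA10 (ENSG00000130414) had 152, 155 and 153 RPKM without treatment, 136, 124 and 129.7 after 4SU, 135, 166 and 147 after UVA and 119, 113 and 117 after 4SU+UVA. UQCRC2 (ENSG00000140740) had 197, 191 and 191 RPKM without treatment, 167, 150.2 and 181 after 4SU, 192, 194 and 200.1 after UVA and 141, 134 and 145 after 4SU+UVA. For both genes, as for NDUFS1, the 4SU libraries lay between the untreated and the combined ones in their means.

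Each of these 4 calls was lost when some single library was left out. Without any 1 untreated library 0 members were higher and 0 lower. Of all genes tested 6.27 to 8.78% were then higher and 1.3 to 1.64% lower. Without 4SU replicate 1 the member counts were 0 and 1 (all genes 5.06% and 1.28%). Without 4SU replicate 2 they were 0 and 0 (all genes 5.52% and 1.21%), and without 4SU replicate 3 they were 3 and 3 (13.4% and 4.47%). The member counts were 1 and 2 without any 1 UVA library, and 1 and 4 without 4SU+UVA replicate 1 or 2. In those fits 10.3 to 12.5% of all genes tested were higher and 2.64 to 3.88% lower. Median centring gave 0 higher and 12 lower members, where 5.56% of all genes tested were higher and 9.38% lower. Quantile normalisation gave 2 and 2, against 5.89% and 4.32% of all genes. The share of higher among the members' calls was thus 25% with the deposited scaling, 0% with centring and 50% with quantiles.

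UVA without 4SU moved no member past the threshold. Of 59 members 0 passed by limma, 3 had an unadjusted p under 0.05 (NDUFB3, NDUFB5 and NDUFC2), and the lowest adjusted p was 0.31. The members' log2 differences ran from -0.21 for NDUFB3 to 0.19 for NDUFB5, with a median of 0.03 against 0.05 for the median gene. Few genes of the whole table passed in this comparison either, 0.652% of those tested (0.278% higher and 0.374% lower). The 3 UVA and 3 untreated libraries did not overlap for 12 members, against 16.8% of all genes tested.

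With 4SU present, UVA moved members of both classes. Against cells given 4SU alone, 31 were higher and 9 lower with 4SU+UVA (52.5% and 15.3%), where 44% of all genes tested passed (25% higher and 19% lower). Libraries did not overlap for 42 members, against 51% of all genes tested. The median member stood at 0.28 and the median gene at 0.09. Of the supernumerary subunits 31 rose and 1 fell (NDUFA9), and of the core or catalytic ones 0 rose and 8 fell. COX8A rose by 1.002 on the log2 scale (SE 0.09, limma adjusted p = 9.2e-07), COX6A1 by 0.93 (SE 0.09, limma adjusted p = 1.8e-06) and COX7C by 0.79 (SE 0.05, limma adjusted p = 6.2e-08). NDUFS1 fell by 0.79 on the log2 scale (SE 0.07, limma adjusted p = 1.6e-06), ATP5F1B by 0.58 (SE 0.05, limma adjusted p = 7.5e-07) and ATP5F1A by 0.57 (SE 0.06, limma adjusted p = 7.6e-06). In the means of COX8A, 4SU alone gave 738 ± 82.3 RPKM and both treatments 1478 ± 151 (SD, n = 3). Calls of NDUFA13 and NDUFB1 were lost without 4SU replicate 3 (limma adjusted p = 0.067 and 0.061), that of NDUFA13 also without 4SU+UVA replicate 2 (0.053), and that of NDUFB1 also without 4SU replicate 2 (0.075) or 4SU+UVA replicate 1 (0.12).

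Among irradiated cells, those with 4SU differed from those without it in a like number of members. With 4SU+UVA against UVA 31 members were higher and 10 lower (52.5% and 16.9%), where 54.4% of all genes tested passed (34.7% higher and 19.8% lower). Libraries did not overlap for 46 members, against 59.4% of all genes tested. The median member stood at 0.23 and the median gene at 0.18. COX7C rose by 0.87 on the log2 scale (SE 0.05, limma adjusted p = 9.6e-09), COX8A by 0.77 (SE 0.09, limma adjusted p = 7.3e-06) and NDUFB3, an accessory subunit of the membrane arm, by 0.75 (SE 0.07, limma adjusted p = 3.8e-07). NDUFB3 (ENSG00000119013) had 175, 166 and 176 RPKM without treatment, 204, 192 and 177 after 4SU, 149, 145 and 153 after UVA and 245, 271 and 239.8 after 4SU+UVA. The UVA libraries of NDUFB3 were its lowest and the combined ones its highest. NDUFS1 fell by 0.90 on the log2 scale (SE 0.07, limma adjusted p = 2.5e-07), ATP5F1A by 0.72 (SE 0.06, limma adjusted p = 4.9e-07) and NDUFA9 by 0.56 (SE 0.08, limma adjusted p = 3.8e-05). This comparison and those against untreated and 4SU cells share the 3 libraries with 4SU+UVA, so their counts are not separate evidence. The calls of NDUFA6 and NDUFB10 were lost without 4SU+UVA replicate 1 (limma adjusted p = 0.063 and 0.083), that of NDUFB10 also without UVA replicate 1 (0.074), and that of NDUFA6 also without 4SU+UVA replicate 2 (0.072) or 3 (0.055) or UVA replicate 2 (0.19).

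Whether the effect of UVA differed between cells with and without 4SU was tested by the interaction, the log2 difference of UVA in 4SU-treated cells minus that in cells without 4SU. It passed for 36 members, 28 higher and 8 lower (47.5% and 13.6%), with a median of 0.24 against 0.02 for the median gene. Over all genes tested 24.8% passed, 10.7% higher and 14.1% lower. All 28 that were higher are supernumerary subunits, and of the 8 that were lower 7 are core or catalytic and 1 is NDUFA9. Complex IV had 10 of 11 subunits higher, COX4I1 being the exception, complex III 4 higher and 2 lower, complex I 14 higher and 4 lower, and both ATP synthase subunits were lower. The highest values were those of COX8A, 0.98 (SE 0.13, limma adjusted p = 8.6e-05), UQCRH, 0.85 (SE 0.19, limma adjusted p = 0.0041), and COX6A1, 0.79 (SE 0.13, limma adjusted p = 4.4e-04). The lowest were those of NDUFS1, -0.66 (SE 0.11, limma adjusted p = 4.3e-04), NDUFA9, -0.61 (SE 0.11, limma adjusted p = 0.0012), and ATP5F1B, -0.58 (SE 0.07, limma adjusted p = 4.7e-05). These 6 passed with any 1 library left out. For UQCRH, UVA without 4SU gave -0.20 and with 4SU 0.66. For ATP5F1B the values were 0.01 and -0.58.

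Among members with shorter transcripts, under 1000 nt, the interaction was higher in 21 of 37 and lower in 1 (56.8% and 2.7%), against 30.5% and 1.96% of all genes of that length. Among the 22 longer members it was higher in 7 and lower in 7 (31.8% each), against 8.68% and 15.4% of all such genes. Over all lengths, median centring gave 29 higher and 7 lower members, against 12.5% and 12.2% of all genes tested. Quantile normalisation gave 23 and 7, against 11.2% and 14.3%.

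**Figure D5:**
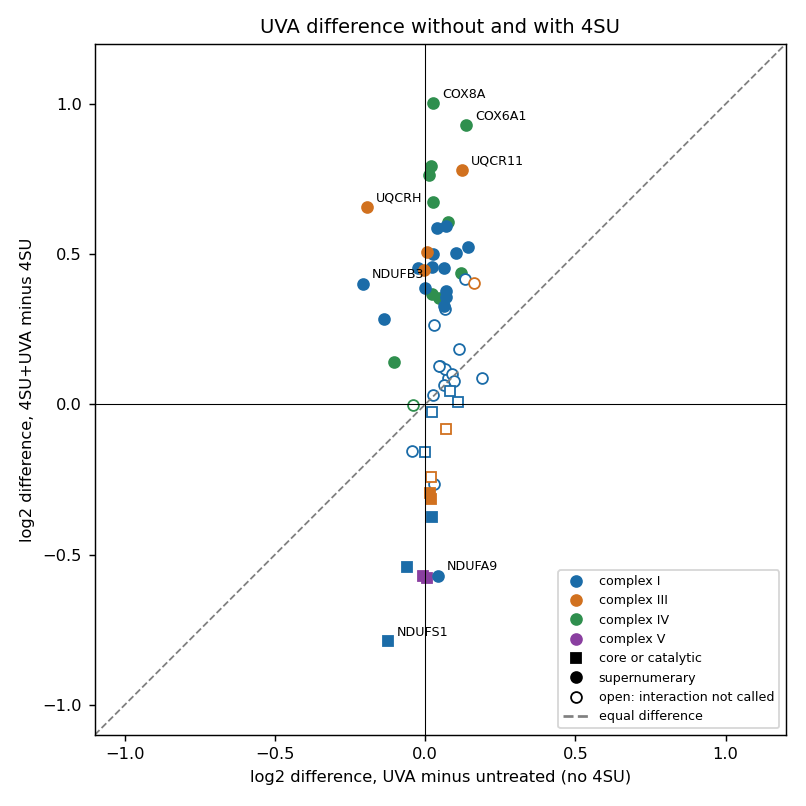
Log2 difference made by UVA without 4SU (x axis, UVA minus untreated) and with 4SU (y axis, 4SU+UVA minus 4SU) for the 59 subunits; the axes share no library, and the dashed line marks equal differences. Filled symbols passed the interaction test. Along x the points lie between -0.21 and 0.19, and along y between -0.79 (NDUFS1) and 1.002 (COX8A).

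Other genes of the pathway were read from a list paired by symbol. Complex II, succinate dehydrogenase, links the citric acid cycle to the chain and is all nuclear-encoded. Its flavoprotein SDHA fell with 4SU+UVA against untreated by 0.58 on the log2 scale (SE 0.13, limma adjusted p = 0.0020), and the membrane anchors SDHC and SDHD rose by 0.60 (SE 0.09, limma adjusted p = 6.3e-05) and 0.39 (SE 0.12, limma adjusted p = 0.012). SDHA had 46.8, 44.5 and 47.6 RPKM without treatment and 35.1, 23.1 and 36.2 after 4SU+UVA, and without 4SU+UVA replicate 2, the lowest of these, it stood at -0.37 (limma adjusted p = 0.0033). SDHB, its iron-sulphur subunit, rose by 0.84 on the log2 scale (SE 0.08, limma adjusted p = 1.1e-06), but it rose also with 4SU alone, by 0.68 (SE 0.08, limma adjusted p = 3.8e-04). SDHB had 98.1, 118 and 113 RPKM without treatment, 171, 170.5 and 184 after 4SU, 137, 116 and 117 after UVA and 185, 208 and 197 after 4SU+UVA. Both groups given 4SU lay above both groups without it, and the interaction of SDHB was -0.002 (SE 0.12, limma adjusted p = 0.99). SDHC had an interaction of 0.92 (SE 0.13, limma adjusted p = 1.4e-04). The interactions of SDHA and SDHD were -0.55 (SE 0.19, limma adjusted p = 0.047) and 0.49 (SE 0.17, limma adjusted p = 0.047), and these calls were lost without 9 and 8 of the 12 libraries in turn, with adjusted p of up to 0.11. The call of SDHD against untreated was lost without 4SU+UVA replicate 2 (limma adjusted p = 0.063) or untreated replicate 1 (0.052), and under median centring (0.13).

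Of 13 other ATP synthase subunits 8 rose, 1 fell and 4 did not pass with 4SU+UVA against untreated (61.5% and 7.69%, against 40.6% and 18.4% of all genes tested). Their median of 0.18 lay 0.05 below that of the median gene, and 6 of the 13 lay above the latter. ATP5MF and ATP5F1E, small subunits of the membrane part and of the central stalk, rose by 0.66 (SE 0.08, limma adjusted p = 7.8e-06) and 0.62 (SE 0.08, limma adjusted p = 2.2e-05). ATP5MC1, ATP5MC2 and ATP5F1D rose by 0.51, 0.18 and 0.18. These 13 subunits were not sorted into the classes. Of ATP synthase the core or catalytic class thus holds only alpha and beta, and its falls do not describe the rest of that enzyme. ATP5F1C, the gamma subunit that turns inside the catalytic head, fell by 0.23 on the log2 scale (SE 0.07, limma adjusted p = 0.011), a call lost without untreated replicate 3 (limma adjusted p = 0.055). Without 4SU+UVA replicate 2 it stood at -0.14 (limma adjusted p = 0.049). The interaction was higher for 5 of the 13 (ATP5F1E, ATP5MC1, ATP5ME, ATP5MF and ATP5MG) and lower for 0 by limma, also at an unadjusted p under 0.05, where 10.7% of all genes tested were higher and 14.1% lower.

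CYCS, cytochrome c, which carries electrons from complex III to IV, did not pass against untreated, at 0.10 (SE 0.08, limma adjusted p = 0.27). With 4SU+UVA against 4SU it was higher, by 0.29 (SE 0.08, limma adjusted p = 0.0073). It did not pass against UVA, at 0.12 (limma adjusted p = 0.21), or in the interaction, at 0.31 (limma adjusted p = 0.055). Of 5 regulators of mitochondrial genes, PPARGC1A did not reach the filter. With 4SU+UVA against untreated, NRF1 and TFAM, of which the latter packs mitochondrial DNA, rose by 0.31 and 0.22, and GABPA and ESRRA did not pass. The call of NRF1 was lost without 4SU+UVA replicate 2 (limma adjusted p = 0.12), untreated replicate 1 (0.066) or untreated replicate 3 (0.097). Those of NRF1 and TFAM were lost under median centring, that of NRF1 also under quantile normalisation. With 4SU+UVA against UVA, ESRRA and TFAM were higher, by 0.48 (SE 0.13, limma adjusted p = 0.0067) and 0.19 (SE 0.06, limma adjusted p = 0.021). NRF1 and GABPA did not pass there. Isoforms known from heart, muscle, lung or testis were near 0, with COX7A1 at 0 reads in every library, COX4I2 at 0 to 1, COX6A2 at 0 to 11 and COX6B2 at 0 to 23. COX6A2 passed as higher on so few reads, and no size is given for it.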

How the data were processed

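The authors deposited a single RPKM table. The submitters' processing notes name STAR 2.7.10a and the build hg38, with the counter, its annotation and filters not given in the sources used here. Read totals, transcript lengths and read counts per gene were worked back from the steps between low RPKM values (tolerance 0.001 reads). Tests used limma 3.58.1 (R 4.3.3, lmFit, eBayes with a variance trend, checked on simulated data) on log2(RPKM + 0.5), over the 11510 genes that reached 1 RPKM in 3 or more libraries. The simulation changed few genes, as many up as down, so it did not check calls under a shift of the median gene. A single model of 4 group means over 12 libraries (8 residual degrees of freedom) gave 6 two-sided contrasts, each Benjamini-Hochberg adjusted over all genes tested, with a threshold of 0.05.

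The table holds Ensembl identifiers without symbols. Members' symbols came with their list, and those of the other pathway and marker lists from a hand-made pairing; neither could be checked against the tables at hand by identifier. Of the 59 symbols 58 are in the RefSeq gene table, and NDUFA4 is there as a synonym. Members and lists were chosen with earlier results of these data known. Per-library values are given for the 5 highest and 5 lowest members in 4SU+UVA against untreated, the 3 highest and 3 lowest called in each other contrast, and 9 central subunits. Members outside that rule whose values are printed (among them NDUFS8, NDUFA8, NDUFB9 and NDUFV3) were chosen after their values were seen. The values of 1 member and 1 marker are not reported here, while counts and sums over members include that member.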

Additional observations from a re-analysis of the deposited data

Results flagged for a closer look

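For 36 of the 59 members the effect of UVA differed between cells with and without 4SU by the interaction test (limma adjusted p under 0.05 over all genes tested), which passed for 24.8% of all genes. The values are log2 differences of UVA with 4SU minus without it. Among the core or catalytic subunits reported here they were -0.66 for NDUFS1, -0.58 for ATP5F1B, -0.56 for ATP5F1A, -0.40 for NDUFS3, -0.34 for UQCRFS1 and -0.31 for UQCRC1. NDUFA9 stood at -0.61 and was the single supernumerary subunit below 0 among those that passed.

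In complex IV the values were 0.98 for COX8A, 0.79 for COX6A1, 0.77 for COX7C, 0.75 for NDUFA4, 0.65 for COX7A2 and 0.53 for COX7B. Lower in the same complex lay COX6C at 0.35, COX5A at 0.32, COX6B1 at 0.31 and COX5B at 0.24. In complex III they were 0.85 for UQCRH, 0.66 for UQCR11, 0.50 for UQCR10 and 0.45 for UQCRB. In complex I NDUFB3 led at 0.61, ahead of NDUFA3 at 0.55, NDUFA1 at 0.52, NDUFC1 and NDUFS5 at 0.48 and NDUFA2 at 0.44. They were followed by NDUFB1 at 0.42, NDUFB2 at 0.40, NDUFA7 and NDUFB4 at 0.39, NDUFC2 at 0.38, NDUFB7 at 0.31, NDUFB6 at 0.29 and NDUFB11 at 0.26.

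With single libraries left out, 21 of the 28 higher and 7 of the 8 lower members passed every time. The others were COX5A, COX5B, COX6B1, NDUFA3, NDUFB1, NDUFB7 and NDUFB11 among the higher and UQCRC1 among the lower, whose calls were lost without 1 library or more.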

How the results depend on the processing

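Of the counts of members higher or lower in the 6 contrasts, 230 recomputed values lay within 1.5 times the reported one and 20 did not, all 20 of them for 4SU or UVA alone. For 4SU against untreated, the 1 higher member became 0 with no filter, with median centring, with no variance trend and with a replicate block, and 2 with quantile normalisation. The 3 lower members became 12 with median centring, 1 with no variance trend and 1 with a fit of only the groups compared. Leaving out single libraries gave 0 to 3 higher and 0 to 4 lower. Of all genes tested 5.06 to 13.4% were then higher and 1.21 to 4.47% lower. For UVA against untreated 1 member was lower with median centring, against 0.

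The replicate numbers showed no sign of pairing: over 18 same-number pairs, deviations from the group means correlated at -0.0457 to 0.0679. A shared effect on few genes could be missed by this check, and the labels do not say whether libraries were paired. With replicate number as a block, 37 members were higher and 10 lower for 4SU+UVA against untreated, 31 and 9 against 4SU, 31 and 10 against UVA, 26 and 9 for the interaction, 0 and 2 for 4SU and 0 and 0 for UVA against untreated.

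For 4SU+UVA against untreated, leaving out single libraries gave 32 to 37 higher and 10 to 11 lower, and for the interaction 22 to 30 higher and 7 to 8 lower. For NDUFV1, 4SU+UVA against untreated, near 0 as reported, gave -0.160 with median centring and -0.0337 with quantile normalisation. With single libraries left out it ran from -0.0125 (without untreated replicate 1) to 0.0477 (without 4SU+UVA replicate 3), and was -0.0113 and -0.0029 without 4SU+UVA replicates 1 and 2. NDUFS7 turned to -0.0837 with median centring. COX4I1 turned to -0.0930 and -0.0536 and COX5B to -0.139 and -0.0738 with median centring and quantile normalisation.

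Transcript lengths and counting rules limit the levels, while depth was at least 72 reads per member and library.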
